A study of Mus musculus with 8 samples.

Results

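Skeletal muscle contractile and metabolic genes were examined in 8 primary mammary tumours of transgenic FVB mice, an inbred strain. The 40 genes are a fixed list, drawn up with the values of these tumours known, and those log2 values therefore chose them. Each was read by the probe that carries its symbol alone, and by the brighter probe where there were several. All 40 had such a probe, among 22180 genes on the array. In 4 tumours the genotype was NeuNT, a form of the gene for ErbB2, a receptor of the epidermal growth factor family. The other 4 were labelled NeuNT/H1074R, which adds a mutant p110α, the kinase subunit of phosphoinositide 3-kinase. The series title spells the mutation H1047R. By these labels both groups carried NeuNT, and no treatment is listed for any tumour. The sources used here do not give the promoters that drive the transgenes or the ages of the mice, nor do they state that each tumour came from a separate mouse. Any p-value therefore measures the spread between these tumours, which may be partly technical.

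Skeletal muscle fibres contract when calcium, released from the sarcoplasmic reticulum through the ryanodine receptor, binds troponin and frees actin for myosin. Fast fibres and slow fibres build this machine from different genes for myosin heavy and light chains, troponins and myosin-binding proteins. Fast fibres draw on glycogen and creatine phosphate, and oxidative fibres hold more mitochondria and myoglobin. In the mouse, mammary glands lie in fat beneath the skin, close to the muscles of the skin and body wall.

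The muscle genes were high in NeuNT/H1074R replicates 1 and 3 and low in the other 6 tumours. The 40 genes were split by role: 10 of the fast sarcomere, 5 of the slow sarcomere, 9 shared by both fibre kinds, 6 of calcium handling, 7 of metabolism and 3 regulators. Fast, shared, calcium and metabolic genes all took part, whereas 4 of the 5 slow genes did not have these tumours on top. Of the 3 regulators, 1 did, by a small margin. Replicate 1 was the tumour with the highest value for 16 genes and replicate 3 for 18 genes. Both tumours were above all 6 others for 27 of the 40 genes, an order seen in 3.87% of all genes on the array. The list was known to be high in these tumours, so this count is a description and no test was made of it.

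**Figure D1:**
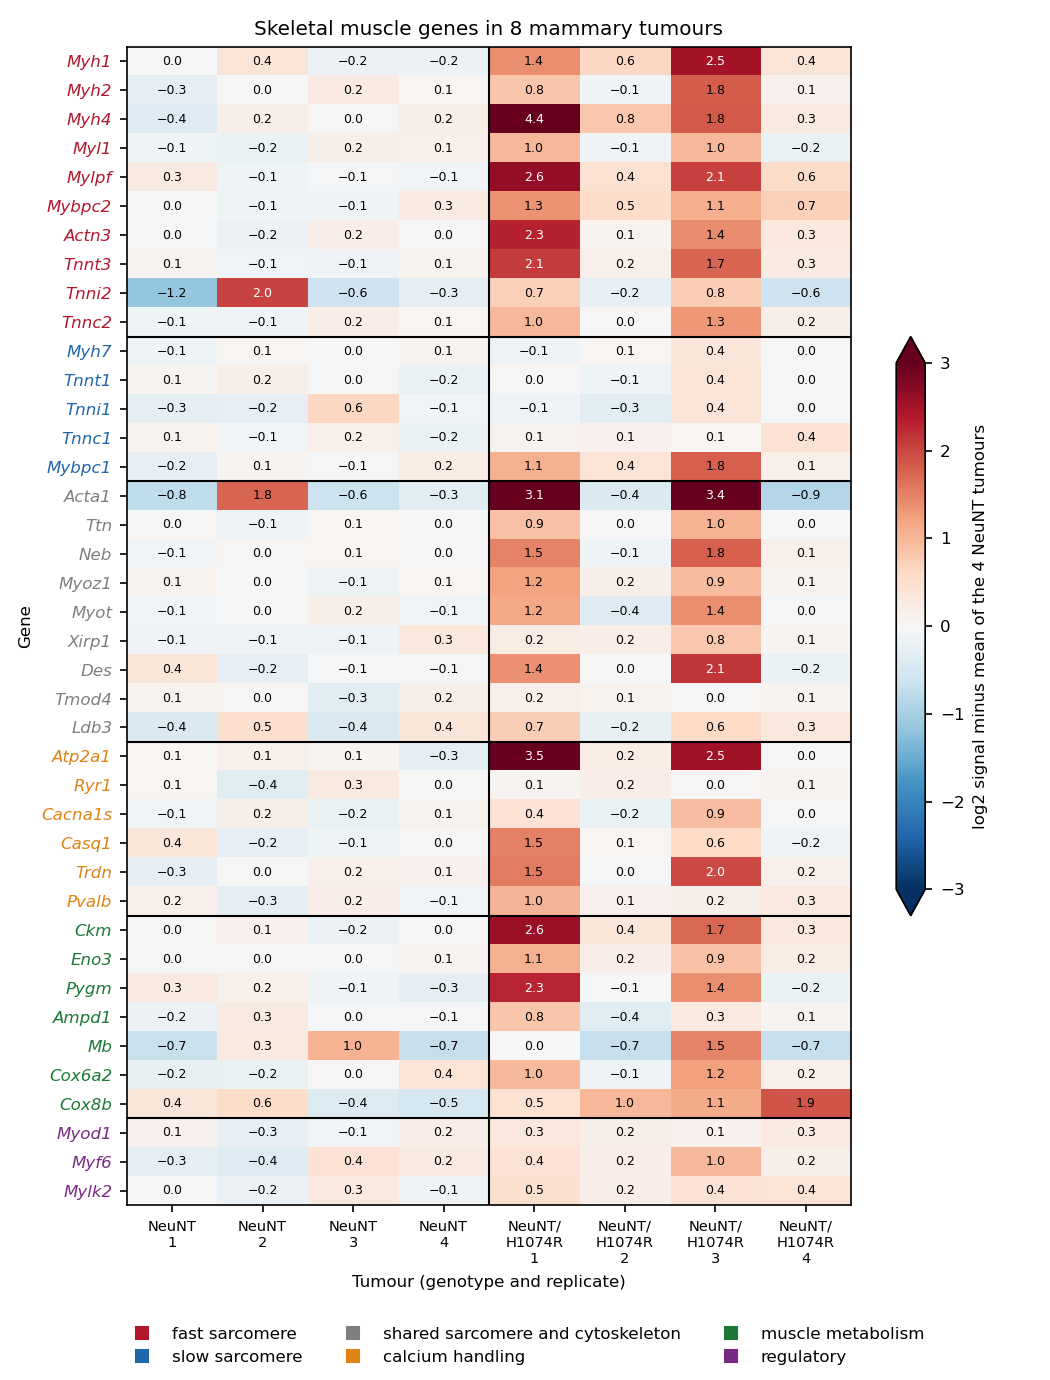
Log2 signal of 40 skeletal muscle genes (rows, coloured and divided by role) in 8 tumours (columns), as the difference from the mean of the 4 NeuNT tumours. Replicates 1 and 3 of NeuNT/H1074R hold most of the red cells, with Myh4 highest in replicate 1, while Myh7, Tnnc1, Tmod4 and Ryr1 differ little between columns.

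All values are log2 array signals as deposited, whose medians lay between 4.82 and 4.87 across the 8 arrays. The arrays correlated with one another at 0.942 to 0.988 over the 22180 genes. The tumours carried the markers of mammary epithelium, a list of 14 genes with a mean log2 signal of 9.26 to 9.98 per tumour, among them the keratin Krt18, the adhesion molecule Epcam, the claudin Cldn3 and Spint2. Muscle genes were dim by comparison with most genes: mean signals over the 8 tumours ran from 4.03 to 7.51, and 10 of the 40 lay above the median gene. The means of 2 genes, Mylpf and Myh7, lay in the lowest 25% of all genes, under 4.06. The files give no detection call. In bulk tumour RNA, fewer cells of a type and less RNA per cell cannot be told apart.

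The genotypes were compared with limma, as NeuNT/H1074R minus NeuNT, over all 22180 genes. After Benjamini-Hochberg adjustment 0 genes passed 0.05 (0%), and 0 of the 40 muscle genes, whose smallest adjusted p was 0.968. At an unadjusted p under 0.05 there were 936 genes (4.22%), of which 12 were muscle genes. The mean was higher in NeuNT/H1074R for 39 of the 40 (52.6% of all genes), and the median log2 difference was 0.54, against 0.01 over all genes. Without both replicates 1 and 3 the mean was higher for 27 of 40 and the median difference was 0.09. In 7 of the 40 genes every NeuNT/H1074R tumour lay above every NeuNT tumour (1.9% of all genes): Myh1, Myh4, Mylpf, Mybpc2, Tnnt3, Ckm and Eno3. This contrast was known when the list was drawn up, so nothing is read from these counts.

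The start regions of several of these genes are shown as background. Among them are the fast myosin genes Myh2, Myh1 and Myh4, which lie in this order on chromosome 11. Whether these sequences play a part in the values of the tumours was not tested. Each line gives the 100 bases before the annotated start, from RefSeq on GRCm38.p6, read 5′ to 3′ along the gene. Capitals mark E-boxes (CANNTG, the core bound by MyoD and related factors), TATA boxes (TATAAA on the gene's strand) and, on either strand, the CArG box, the element bound by serum response factor. MEF2 sites were also searched, and none of these windows held one.
Myh2 (chr11:67170927-67171026, plus strand): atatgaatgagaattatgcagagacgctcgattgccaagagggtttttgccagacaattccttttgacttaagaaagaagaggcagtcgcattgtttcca
Myh1 (chr11:67200002-67200101, plus strand): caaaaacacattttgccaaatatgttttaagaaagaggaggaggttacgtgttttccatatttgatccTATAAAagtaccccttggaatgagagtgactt
Myh4 (chr11:67237712-67237811, plus strand): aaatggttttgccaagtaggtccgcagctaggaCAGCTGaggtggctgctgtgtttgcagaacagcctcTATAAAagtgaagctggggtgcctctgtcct
Mylpf (chr7:127211508-127211607, plus strand): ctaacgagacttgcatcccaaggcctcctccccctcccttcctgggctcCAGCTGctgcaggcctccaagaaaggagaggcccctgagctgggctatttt
Atp2a1 (chr7:126463074-126463173, minus strand): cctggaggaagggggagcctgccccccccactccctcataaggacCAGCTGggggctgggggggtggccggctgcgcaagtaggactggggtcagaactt
Acta1 (chr8:123894776-123894875, minus strand): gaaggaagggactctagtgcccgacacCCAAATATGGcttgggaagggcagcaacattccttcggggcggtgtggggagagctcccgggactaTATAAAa
Tnni1 (chr1:135799321-135799420, plus strand): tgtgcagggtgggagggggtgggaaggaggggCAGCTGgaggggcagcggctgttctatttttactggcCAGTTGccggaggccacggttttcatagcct

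Myh4 held an E-box of the form CAGCTG 67 bases before its start, Mylpf 51 bases and Atp2a1 55 bases before theirs. In Myh1 and Myh2 no E-box lay in this window, and Myh1 had a TATA box 32 bases before the start. Acta1 held a CArG box 73 bases before its annotated start. RefSeq start regions, from 250 bases before to 50 bases after the start, were at hand for 27 of the 40 genes, with 33 regions because some genes have several starts. Of these, 17 (51.5%) held CAGCTG, against 16.3% of all 32851 regions. Any E-box was found in 27 of 33 (81.8%), against 72.3%, and CAGCTG is one of its forms. MEF2 sites lay in 4 of 33 (12.1%), against 3.19%, CArG boxes in 4 of 33 (12.1%), against 1.63%, and TATAAA in 6 of 33 (18.2%), against 8.32%. The slow gene Tnni1 also held CAGCTG, 68 bases before the start shown here. The window before its other annotated start held no E-box. A match describes letters in a window and does not show that a factor binds there.

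Fast sarcomere genes made up the most complete group. Their median log2 difference between genotypes was 0.98, and 9 of the 10 had replicates 1 and 3 of NeuNT/H1074R on top. The exception was Tnni2. Myh4, the heavy chain of the fastest fibres, had log2 signals of 2.91, 3.49, 3.34 and 3.49 in NeuNT replicates 1 to 4, and of 7.68, 4.12, 5.16 and 3.58 in NeuNT/H1074R replicates 1 to 4. Replicate 1 stood far above every other tumour, and all 4 NeuNT/H1074R tumours lay above all NeuNT tumours, replicate 4 by a small margin. The log2 difference between genotypes was 1.83 ± 0.76 (SE, n = 4 per genotype), and 0.98 without NeuNT/H1074R replicate 1.

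Myh1, the heavy chain of fibres intermediate between the fastest and the fast oxidative ones, stood at 3.61, 4.02, 3.47 and 3.46 in NeuNT and at 5.04, 4.26, 6.14 and 4.03 in NeuNT/H1074R. Here replicate 3 was highest, and the lowest NeuNT/H1074R tumour only just exceeded NeuNT replicate 2. Myh2, the heavy chain of fast oxidative fibres, stood at 4.005, 4.30, 4.54 and 4.36 in NeuNT and at 5.13, 4.16, 6.11 and 4.42 in NeuNT/H1074R. It was likewise highest in replicate 3, and the genotypes overlapped. The log2 differences were 1.23 ± 0.42 (SE) for Myh1 and 0.65 ± 0.38 (SE) for Myh2. Without replicate 3 they were 0.80 and 0.27. Myosin heavy chain genes are close in sequence, and how far each probe tells them apart is not known from the sources used here.

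The remaining fast genes encode the light chains, troponins and partners of these myosins. Mylpf, the phosphorylatable fast light chain, stood at 3.59, 3.21, 3.26 and 3.24 in NeuNT and at 5.96, 3.77, 5.39 and 3.89 in NeuNT/H1074R, with no overlap. Tnnt3, the fast troponin that binds tropomyosin, stood at 5.77, 5.59, 5.57 and 5.78 in NeuNT and at 7.77, 5.83, 7.42 and 5.93 in NeuNT/H1074R, also with no overlap. Actn3, the α-actinin of fast fibre Z-discs, stood at 5.50, 5.37, 5.73 and 5.53 in NeuNT and at 7.84, 5.65, 6.96 and 5.84 in NeuNT/H1074R. For all 3 genes replicates 1 and 3 were clearly highest and replicates 2 and 4 lay close to the NeuNT tumours. Their log2 differences were 1.43 ± 0.46 (SE), 1.06 ± 0.43 (SE) and 1.04 ± 0.44 (SE).

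Mybpc2, the fast myosin-binding protein, had the smallest SE of the 10 fast genes. Its log2 signal was 4.24, 4.13, 4.17 and 4.52 in NeuNT and 5.61, 4.81, 5.36 and 4.99 in NeuNT/H1074R. Replicates 2 and 4 were also above every NeuNT tumour, and the difference of 0.93 ± 0.19 (SE) was 0.63 without both replicates 1 and 3. Tnnc2, the fast calcium-binding troponin, and Myl1, a fast alkali light chain, had smaller log2 differences of 0.63 ± 0.28 (SE) and 0.43 ± 0.30 (SE). In both, replicates 2 and 4 lay within or beside the NeuNT range, which was 5.57 to 5.92 for Tnnc2 and 4.60 to 4.96 for Myl1.

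**Figure D2:**
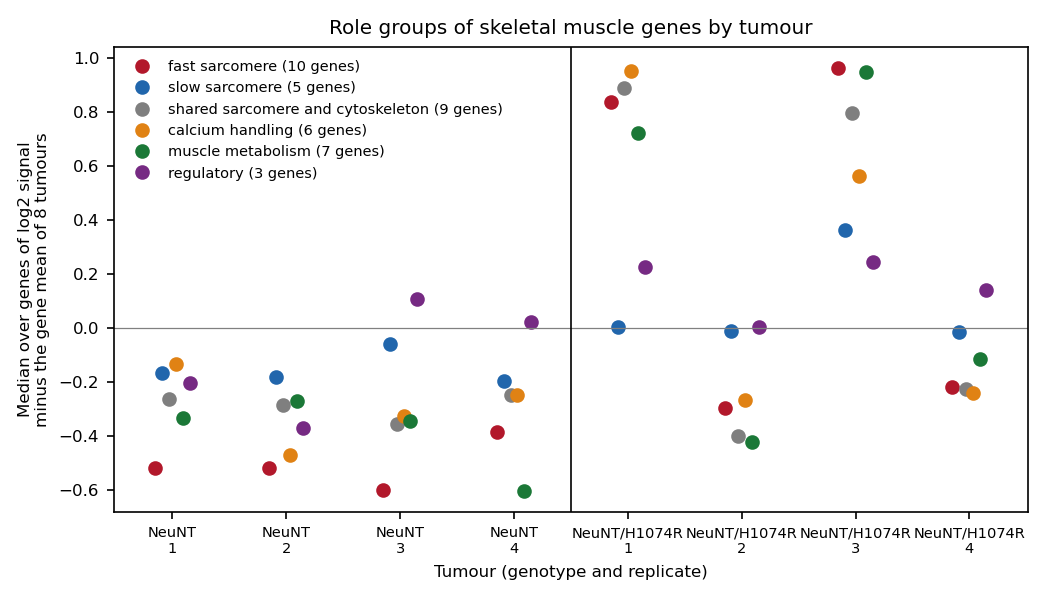
Median over the genes of each role group of log2 signal minus the gene's mean over 8 tumours, by tumour. In NeuNT/H1074R replicates 1 and 3 the fast, shared, calcium and metabolic groups stand at 0.56 to 0.96, while the slow group stands at 0.00 in replicate 1 and 0.36 in replicate 3.

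Slow sarcomere genes did not share the pattern, apart from Mybpc1. Their median log2 difference was 0.09, and 1 of the 5 had replicates 1 and 3 on top. Myh7, the slow heavy chain, stood at 3.86, 4.05, 3.97 and 4.07 in NeuNT and at 3.88, 4.05, 4.35 and 4.02 in NeuNT/H1074R. Only replicate 3 left the NeuNT range, by a small step. Its log2 difference of 0.09 had a 95% interval of −0.18 to 0.36.

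The slow troponins were flat or irregular. Tnnt1, which anchors slow troponin to tropomyosin, stood at 5.18, 5.27, 5.05 and 4.90 in NeuNT and at 5.14, 4.97, 5.50 and 5.07 in NeuNT/H1074R. Tnni1, the slow inhibitory troponin, stood at 5.06, 5.10, 5.98 and 5.26 in NeuNT and at 5.24, 5.03, 5.73 and 5.33 in NeuNT/H1074R. Tnnc1, the calcium-binding troponin of slow and cardiac muscle, stood at 6.37, 6.17, 6.42 and 6.07 in NeuNT and at 6.37, 6.39, 6.32 and 6.68 in NeuNT/H1074R. Replicate 3 was highest for Tnnt1, NeuNT replicate 3 for Tnni1 and NeuNT/H1074R replicate 4 for Tnnc1, and the genotypes overlapped in each. The differences of −0.02 (95% interval −0.55 to 0.51) for Tnni1, 0.07 (−0.26 to 0.40) for Tnnt1 and 0.19 (−0.13 to 0.50) for Tnnc1 all had intervals that spanned 0.

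Mybpc1, the slow-type myosin-binding protein, which fast fibres also make, behaved like the fast genes. Its log2 signal was 4.04, 4.36, 4.22 and 4.51 in NeuNT and 5.34, 4.70, 6.08 and 4.43 in NeuNT/H1074R. Replicate 3 was highest, replicate 1 next, and replicate 4 fell within the NeuNT range. The difference was 0.86 ± 0.33 (SE) and 0.54 without replicate 3.

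Genes shared by both fibre kinds were high in the same tumours, at a median log2 difference of 0.53 over the 9. Acta1, skeletal α-actin, had the widest range of these 9: 6.09, 8.61, 6.22 and 6.52 in NeuNT and 10.01, 6.42, 10.23 and 5.97 in NeuNT/H1074R. NeuNT replicate 2 lay between the high pair and the rest, so the genotypes overlapped and the difference of 1.30 ± 1.06 (SE) had a wide error. It was 0.61 without NeuNT/H1074R replicate 3 and 2.03 without replicate 4. Desmin (Des), the intermediate filament that ties Z-discs together, stood at 6.20, 5.61, 5.78 and 5.79 in NeuNT and at 7.21, 5.82, 7.99 and 5.64 in NeuNT/H1074R.

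The giant proteins followed. Nebulin (Neb), which lines the thin filament, stood at 4.11, 4.24, 4.26 and 4.19 in NeuNT and at 5.68, 4.07, 5.98 and 4.34 in NeuNT/H1074R. Titin (Ttn), the spring of the sarcomere, stood at 4.20, 4.05, 4.22 and 4.15 in NeuNT and at 5.04, 4.17, 5.19 and 4.17 in NeuNT/H1074R. For Ttn replicates 2 and 4 lay within the NeuNT range, and for Neb replicate 2 lay just below it and replicate 4 just above it. The differences without replicates 1 and 3 were 0.01 for Neb and 0.02 for Ttn. The Z-disc genes Myoz1, Myot and Ldb3 had log2 differences of 0.61 ± 0.25, 0.53 ± 0.37 and 0.36 ± 0.29 (SE). Each had replicates 1 and 3 on top, but for Ldb3 replicate 3 at 5.86 was close to NeuNT replicate 2 at 5.77. Xirp1, an actin-binding protein of muscle attachment sites, was highest in replicate 3 at 5.75 but stood at 5.27 in NeuNT replicate 4 and 5.17 in NeuNT/H1074R replicate 1. Tmod4, which caps thin filaments in skeletal muscle, ran only from 5.11 to 5.60 over all tumours.

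Calcium handling genes had a median log2 difference of 0.45 over 6 genes. Atp2a1, the calcium pump of the fast fibre reticulum, stood at 4.80, 4.89, 4.83 and 4.48 in NeuNT and at 8.22, 4.97, 7.26 and 4.70 in NeuNT/H1074R. Replicates 1 and 3 stood far above a tight set of 6 tumours. The difference was 1.54 ± 0.72 (SE), 0.90 without replicate 1 and 0.09 without both. Triadin (Trdn), which links the reticulum's calcium store to the release channel, stood at 3.35, 3.63, 3.78 and 3.76 in NeuNT and at 5.18, 3.61, 5.62 and 3.79 in NeuNT/H1074R.

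The calcium buffers leaned towards replicate 1. Calsequestrin (Casq1), the store of the reticulum, stood at 4.77, 4.17, 4.28 and 4.45 in NeuNT and at 5.92, 4.48, 5.003 and 4.25 in NeuNT/H1074R. Parvalbumin (Pvalb), a cytoplasmic buffer of fast fibres, stood at 4.87, 4.43, 4.91 and 4.63 in NeuNT and at 5.72, 4.83, 4.88 and 4.99 in NeuNT/H1074R. For Pvalb replicate 3 fell inside the NeuNT range. Cacna1s, the voltage sensor that opens the release channel, was highest in replicate 3 at 5.93 and next in replicate 1 at 5.45, against 4.79 to 5.19 elsewhere.

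Ryr1, the release channel itself, depended on the probe. The brighter probe, chosen by the rule, stood at 5.15, 4.71, 5.37 and 5.08 in NeuNT and at 5.16, 5.27, 5.10 and 5.17 in NeuNT/H1074R, and showed no high tumour. The other Ryr1 probe stood at 4.63, 4.66, 4.61 and 4.74 in NeuNT and at 5.61, 4.84, 5.31 and 4.92 in NeuNT/H1074R, with replicates 1 and 3 on top and no overlap. The log2 differences were 0.10 and 0.51. Ckm was the only other gene of the list with a second probe, with log2 differences of 1.25 for the brighter probe and 0.39 for the other. The other Ckm probe stood at 4.47, 4.48, 4.57 and 4.48 in NeuNT and at 4.73, 4.84, 4.99 and 4.98 in NeuNT/H1074R. It did not overlap between genotypes, but replicate 1 was the lowest of its genotype and replicate 4 was level with replicate 3.

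Metabolic genes had a median log2 difference of 0.59 over 7 genes. Ckm, the muscle creatine kinase that regenerates ATP, stood at 5.04, 5.12, 4.82 and 5.02 in NeuNT and at 7.58, 5.37, 6.71 and 5.31 in NeuNT/H1074R. Pygm, the glycogen phosphorylase of muscle, stood at 4.89, 4.77, 4.49 and 4.33 in NeuNT and at 6.89, 4.55, 6.02 and 4.41 in NeuNT/H1074R. Eno3, the muscle enolase, stood at 6.06, 6.10, 6.05 and 6.17 in NeuNT and at 7.15, 6.29, 6.98 and 6.32 in NeuNT/H1074R. All 3 were highest in replicate 1 and next in replicate 3, and only Pygm overlapped between genotypes. Ampd1, the AMP deaminase of muscle, was highest in replicate 1 at 5.12, and replicate 3 at 4.58 was barely above NeuNT replicate 2 at 4.56.

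Oxidative genes of the list went their own ways. Cox6a2, a muscle subunit of cytochrome c oxidase, kept the common order, at 6.02 in replicate 1 and 6.28 in replicate 3 against 4.84 to 5.48 elsewhere. Myoglobin (Mb), the oxygen store of oxidative fibres, stood at 6.67, 7.64, 8.38 and 6.64 in NeuNT and at 7.32, 6.65, 8.82 and 6.65 in NeuNT/H1074R. It was high in replicate 3 of each genotype, and the difference of 0.03 ± 0.56 (SE) turned to −0.46 without NeuNT/H1074R replicate 3. Cox8b, an oxidase subunit of muscle that brown fat also makes, stood at 4.45, 4.64, 3.68 and 3.57 in NeuNT and at 4.54, 5.09, 5.20 and 5.98 in NeuNT/H1074R. Its highest value was in replicate 4, a tumour low for the sarcomere genes, and its difference of 1.11 ± 0.34 (SE) was 1.45 without both replicates 1 and 3.

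The regulators differed from one another. Myod1, the transcription factor that commits cells to muscle, ran from 4.69 to 5.14 in NeuNT and from 5.08 to 5.28 in NeuNT/H1074R. Myf6, the related factor of mature fibres, ran from 3.54 to 4.36 in NeuNT and from 4.09 to 4.90 in NeuNT/H1074R, with replicate 3 highest. Mylk2, the kinase that phosphorylates the fast light chain, ran from 4.91 to 5.39 and from 5.28 to 5.57. Genotypes overlapped for all 3, at log2 differences of 0.22 ± 0.13, 0.44 ± 0.24 and 0.38 ± 0.14 (SE). Replicates 1 and 3 were the highest tumours for 1 of them, Mylk2, at 5.57 and 5.52 against 5.50 in NeuNT/H1074R replicate 4.

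The high tumours were not alike in their mix of fibre genes. Replicate 1 exceeded replicate 3 in 19 of the 40 genes, and the median log2 difference between these tumours was −0.03. Myh4 was higher in replicate 1 by a log2 difference of 2.53, Atp2a1 by 0.96, Casq1 by 0.91, Actn3 by 0.88, Pygm by 0.88, Ckm by 0.86 and Pvalb by 0.83. All of these are abundant in fast glycolytic fibres, and they were named for the size of their differences. The fast sarcomere genes as a group were split. Replicate 1 was the higher in 5 of the 10, at a median of 0.12. For Ckm the direction depended on the probe: the other probe stood at 4.73 in replicate 1 and 4.99 in replicate 3. Replicate 3 was higher for Mb (replicate 1 minus replicate 3, −1.50), Myh1 (−1.10), Myh2 (−0.98), Des (−0.78) and Mybpc1 (−0.74). It was also higher for 4 of the 5 slow genes, at a median of −0.47. Acta1 (−0.22), Ttn (−0.15) and Myl1 (0.00) were nearly level. Each tumour is a single array, so these differences have no replicate check.

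**Figure D3:**
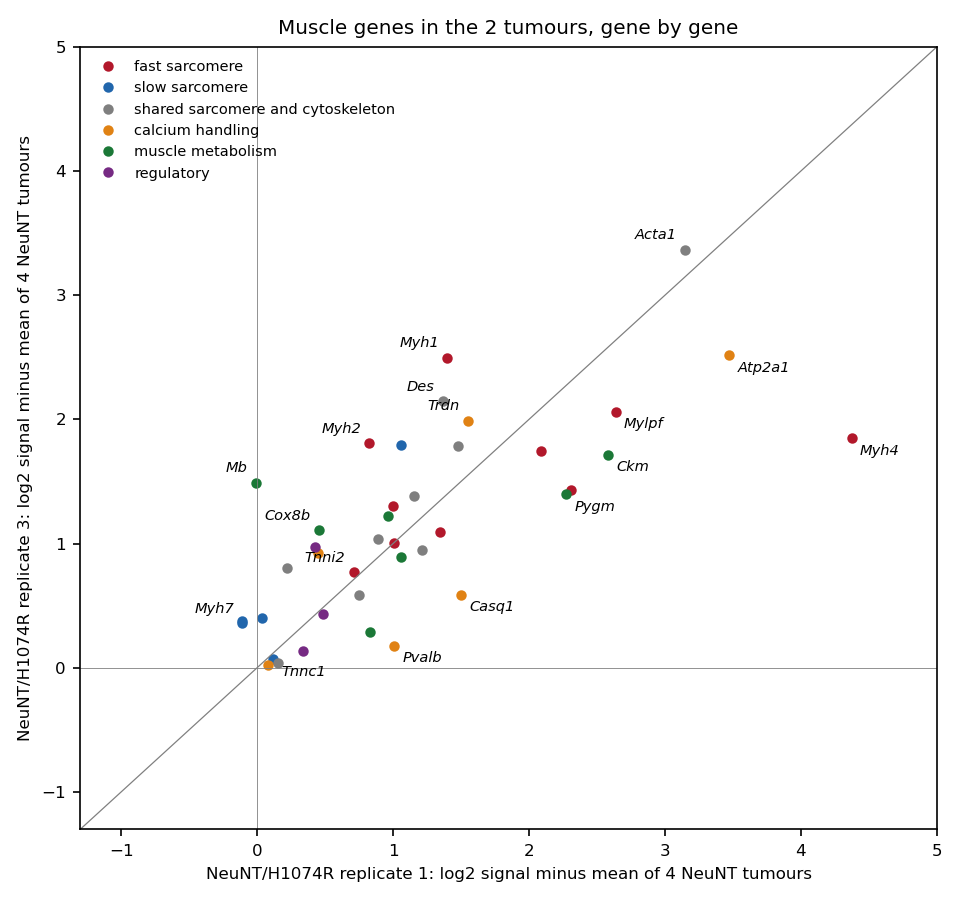
Log2 signal minus the mean of the 4 NeuNT tumours for each of the 40 genes, in NeuNT/H1074R replicate 1 (horizontal axis) and replicate 3 (vertical axis), coloured by role, with the line of equality. Myh4 lies far to the right of the line at 4.37 and 1.85, Myh1, Myh2 and Mb lie above it, and Tnnc1, Tmod4 and Ryr1 sit near the origin.

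Tnni2, the fast inhibitory troponin, and Acta1 were also high in a NeuNT tumour. Tnni2 stood at 4.56, 7.74, 5.10 and 5.45 in NeuNT and at 6.42, 5.47, 6.48 and 5.09 in NeuNT/H1074R. NeuNT replicate 2 was highest, with the NeuNT/H1074R pair next, and the difference of 0.15 ± 0.65 (SE) was 0.83 without that tumour. In that tumour Tnnt3 stood at 5.59 and Myh4 at 3.49, both within the range of the other NeuNT tumours or beside it. Myh1 and Ldb3, picked with their values in view, stood above the other NeuNT tumours there. Myh1 was at 4.02 against 3.46 to 3.61, and Ldb3 at 5.77 against 4.84 to 5.64. Over the 40 genes NeuNT replicate 2 was the highest of the 8 tumours for 1 and the lowest for 11. The same tumour stood apart for smooth muscle and myoepithelial markers, a list of 10 genes with a mean log2 signal of 9.19 in NeuNT replicate 2, 6.89 to 6.90 in the other NeuNT tumours and 6.69 to 7.46 in NeuNT/H1074R, where replicate 3 was highest. In NeuNT replicate 2 the calponin Cnn1 reached 11.53, against 5.50 to 8.42 elsewhere, and the calsequestrin Casq2 9.66, against 4.18 to 6.13. Cnn1 was chosen after its values were seen. The part of these cells in the Acta1 and Tnni2 values was not tested.

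**Figure D4:**
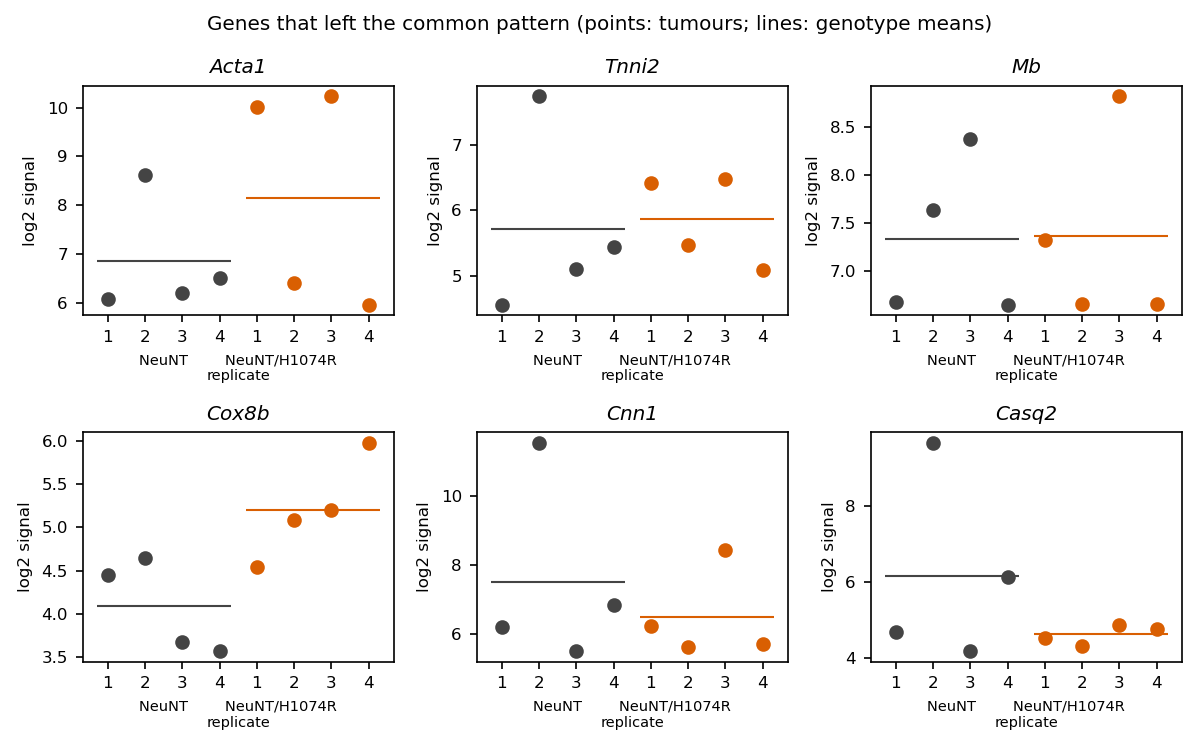
Log2 signal of Acta1, Tnni2, Mb, Cox8b, Cnn1 and Casq2 in each tumour (points) with the genotype means (lines), 4 tumours per genotype. Acta1 and Tnni2 are high in NeuNT replicate 2, where Cnn1 and Casq2 peak at 11.53 and 9.66, while Mb is high in replicate 3 of both genotypes and Cox8b in NeuNT/H1074R replicate 4.

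Skeletal muscle genes outside the 40 were read from the same arrays. Of 38 such genes listed, 35 had a probe of their own. Of these, 30 had a higher mean in NeuNT/H1074R and 5 a lower one, at a median log2 difference of 0.20, and 0 passed in limma. Replicates 1 and 3 were on top for 18 of the 35, and 4 did not overlap between genotypes (1.9% of all genes). The brightest of the list, Fbxo32, Jsrp1, Srl and Tcap, did not have replicates 1 and 3 on top. The ubiquitin ligase gene Fbxo32 was highest in NeuNT replicate 3 at 9.52. The triad gene Jsrp1 and the titin cap Tcap had log2 differences of 0.10 and 0.15. The reticulum gene Srl had a difference of 0.33, above the list median, at 6.08, 6.23 and 6.21 in NeuNT/H1074R replicates 1, 2 and 3. Wider differences between tumours were seen in genes picked after their values were known. Actn2, the α-actinin of all fibres, reached 5.98 in replicate 3 and 4.35 in replicate 1, against 3.23 to 3.76 elsewhere. Xirp2, a relative of Xirp1, reached 5.93 and 4.14, against 3.38 to 3.77.

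Slow or oxidative fibre genes outside the list stood higher in replicate 3 than in replicate 1. In 0 of the 10 was replicate 1 the higher, and the median difference, replicate 1 minus replicate 3, was −0.50. This lean was not confined to slow genes. Replicate 1 was the higher in 8 of the 35 other skeletal muscle genes (median −0.17) and in 4 of 14 satellite cell and developing muscle genes (−0.09). In the cardiac list it was the higher in 7 of 12. The share over all genes was not counted. Among the 10 slow or oxidative fibre genes, replicates 1 and 3 were on top for 2, Ankrd2 and Sln. Csrp3, a stretch-responsive Z-disc protein, stood at 4.97 to 5.15 in NeuNT and at 5.34, 5.29, 6.84 and 5.36 in NeuNT/H1074R. Ankrd2, another stretch-responsive gene, stood at 5.90 in replicate 3, against 4.83 to 5.43 elsewhere. Sarcolipin (Sln), an inhibitor of the calcium pump that was chosen after its values were seen, stood at 6.36 in replicate 3, against 2.90 to 3.81 in the other 7 tumours. The slow light chains Myl2 and Myl3, also chosen afterwards, reached only 5.10 and 5.44 there, against 4.70 to 4.93 and 4.71 to 5.23. Cox7a1, an oxidase subunit of heart, muscle and brown fat, was highest in NeuNT replicate 1 at 8.31.

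Other cell types that share muscle genes were measured beside them. Cardiac markers, 12 genes, had a mean log2 signal of 4.96 to 5.24 in NeuNT and 5.05 to 5.28 in NeuNT/H1074R, and 0 of 12 had replicates 1 and 3 on top. The cardiac heavy chain Myh6 ran from 4.49 to 5.02 and the heart hormone Nppa from 4.42 to 4.98 over all tumours. The brightest gene of this list, Tnnt2, varied more, from 6.51 to 9.07, and was highest in NeuNT replicate 3. Actc1, chosen after its values were seen, was highest in NeuNT/H1074R replicate 3 at 4.40, against 3.55 to 4.05 elsewhere. Satellite cell and developing muscle genes, 14 in number, had means of 4.48 to 4.57 in NeuNT and 4.62 to 4.80 in NeuNT/H1074R. Among them the embryonic heavy chain Myh3 ran from 2.44 to 3.08 and the neonatal Myh8 from 3.88 to 4.36. For brown fat, with 7 of 8 markers measured, means were 5.01 to 5.56 in NeuNT and 5.11 to 5.22 in NeuNT/H1074R, and the uncoupling protein Ucp1, its defining gene, ran from 4.01 to 4.44. Adipocyte markers (11 of 12 measured) had means of 6.13 to 7.40 in NeuNT and 5.72 to 6.49 in NeuNT/H1074R, fibroblast markers (10) 7.80 to 9.11 and 7.67 to 8.49, and Schwann cell markers (6 of 9) 6.08 to 7.12 and 6.43 to 6.74. By list mean, replicates 1 and 3 were the highest tumours for the satellite cell list, at 4.72 and 4.80, and also for the mammary epithelium list, at 9.82 and 9.98. By the median of centred values NeuNT replicate 3 was highest for mammary epithelium, at 0.27 against 0.08 and 0.10, and replicates 1 and 3 were on top for 2 of its 14 genes, Krt8 and Krt19. Krt19 stood 2.90 and 2.92 above its NeuNT mean there, on the log2 scale. By mean, replicate 1 was highest for the cardiac list, and a NeuNT tumour for the fat, fibroblast and Schwann cell lists. By median, NeuNT/H1074R replicate 2 was highest for the Schwann cell list, at 0.21, and replicate 3 reached 0.19. The part of these cells in the muscle gene values was not tested.

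**Figure D5:**
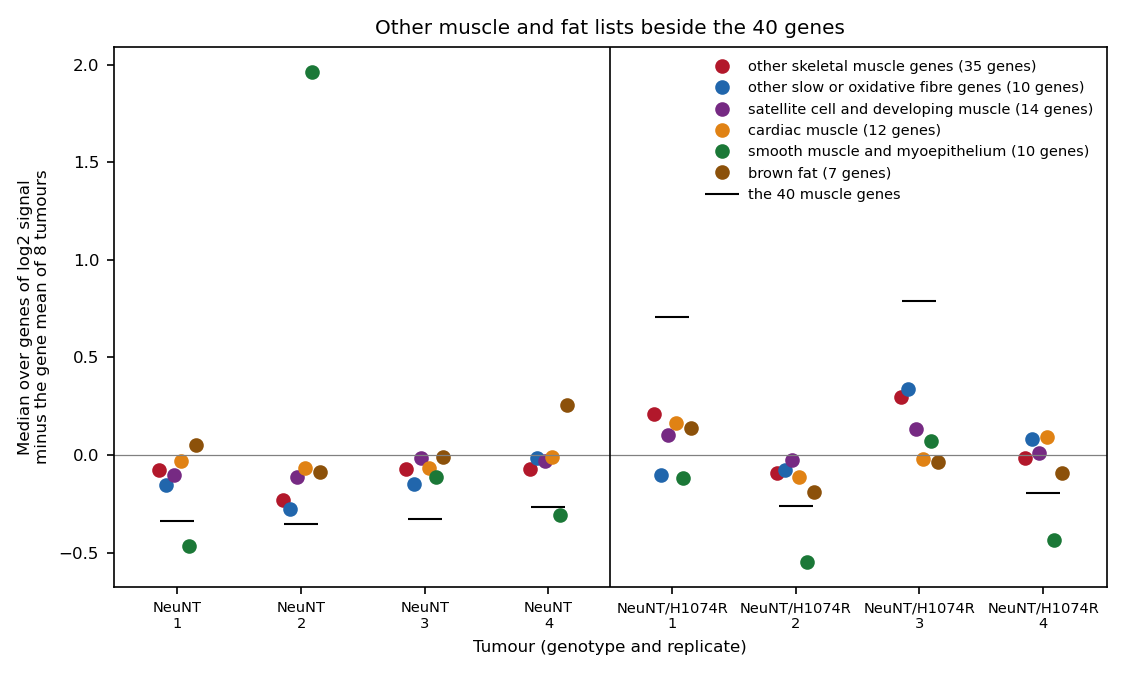
Median over genes of log2 signal minus the gene's mean over 8 tumours, for 6 lists of other muscle and fat genes (points) beside the 40 muscle genes (horizontal marks), by tumour. The 40 genes stand at 0.71 and 0.79 in NeuNT/H1074R replicates 1 and 3, other skeletal muscle genes at 0.21 and 0.30, and the smooth muscle list peaks at 1.96 in NeuNT replicate 2.

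Broadly expressed relatives of the muscle genes were mostly bright. Of 17 such genes, 16 were measured, with a median log2 difference of −0.11, and replicates 1 and 3 were on top for 1 of them, the non-muscle heavy chain Myh9. The brightest 4 were Cox6a1, the counterpart of Cox6a2, the α-actinin Actn4, vimentin (Vim) and β-actin (Actb), with log2 differences of −0.27, 0.25, −0.58 and −0.09. Cox6a1 ran from 12.52 to 12.76 in NeuNT and from 12.28 to 12.43 in NeuNT/H1074R, so that it was lower in every NeuNT/H1074R tumour (1.03% of all genes were).

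The genes outside the list that came closest to its median profile were found by the root mean square difference between profiles over the 8 tumours, each profile being log2 signal minus the gene's mean. Among 22140 genes, with 6 predicted or receptor names passed over, the 15 closest included 6 of the other skeletal muscle list (Smpx, Myom1, Nrap, Asb5, Cmya5 and Klhl41) and Chrna1, a subunit of the muscle acetylcholine receptor. The other 8 were in none of the lists. Golm1, a Golgi membrane protein gene, was closest at a root mean square difference of 0.15. Its log2 signal was 7.05 to 7.44 in NeuNT and 8.08, 7.44, 8.19 and 7.22 in NeuNT/H1074R. Rcor2 (0.17), a transcriptional corepressor, and Nans (0.18), an enzyme of sialic acid synthesis, came next. Pramel13, Krt42, Pex14, Rrp1b and Gpd1, the glycerol phosphate dehydrogenase of the cytoplasm, completed the set. The measure favours genes whose range is close to that of the median muscle gene, so Myh4 or Acta1 would not rank high by it.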

How the data were processed

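Total RNA of 8 mammary tumours was measured on Affymetrix whole-transcript arrays, 1 array per tumour. The values are log2 signals of 41345 probes, in 1 table that the authors deposited. Per the submitters' processing notes, Affymetrix Expression Console and Transcriptome Analysis Console were used; the sources used here give no versions and no normalization. An array has no read depth, so precision is limited by how many arrays there are.

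Genotype came from the labels, and tumours were numbered 1 to 4 within each. Probes were named from the platform annotation: 23521 had 1 symbol, and 1814 with several and 16010 not listed were not used. Of 22180 genes, 1082 had several probes and took the brightest. Entrez identifiers of all 40 muscle genes matched RefSeq. No filter on dim genes was used, since the list includes dim genes. Genotypes were compared with limma 3.58.1 in R 4.3.3 (lmFit, eBayes with trend, two-sided, Benjamini-Hochberg). Errors are SEs of that fit. The method was also run on simulated data with noise drawn separately for each gene. In these tumours many genes rose together, so that run does not show what could be detected here.

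The 40 genes, their roles and the other lists were chosen with earlier results of these data known. All 40 may be named; outside them the 15 genes closest in profile are named and, per list, up to 4 of highest mean and its defining markers. Any further gene was picked with its values in view, and is marked so or belongs to a count of 5 or fewer. Alternatives left out tumours, rescaled arrays, filtered dim genes, averaged probes or changed the variance model or array weights.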

Additional observations from a re-analysis of the deposited data

Results flagged for a closer look

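Among 80 sets of 4 tumours (40 genes in each genotype), 3 held a tumour far from the others, by Dixon's criterion at 95%. Chance gives about 1 in 20, which this count did not exceed. Acta1 stood at 8.61 in NeuNT replicate 2, against 6.09 to 6.52 in the other NeuNT tumours. Xirp1 stood at 5.27 in NeuNT replicate 4, against 4.83 to 4.85 in the others. Mylpf stood at 3.59 in NeuNT replicate 1, against 3.21 to 3.26 in the others, all of them dim signals. None of the 3 lay in NeuNT/H1074R, where replicates 1 and 3 were high together. The criterion looks for a single tumour apart from the rest, so it can hardly flag a high pair. Nothing is read from the lack of flags there.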

How the results depend on the processing

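The count of genes past the threshold was 0 under all alternatives. Leaving out 1 tumour at a time gave 35 to 40 muscle genes with a higher mean in NeuNT/H1074R, 7 to 11 whose genotypes did not overlap (11 without NeuNT/H1074R replicate 2), and medians of 0.37 to 0.74 over the 40 genes, 0.67 to 1.20 over the fast genes, −0.00 to 0.19 over the slow genes and 0.26 to 0.48 over the regulators. Without both NeuNT/H1074R replicates 1 and 3 the median was 0.0929 over the 40 genes and 0.21 over the fast genes, with 2 tumours left in that genotype, and 12 genes turned in sign. With 1 tumour left out, 7 genes turned in sign (Mb, Myh7, Ryr1, Tmod4, Tnni1, Tnni2 and Tnnt1), in 34 the difference moved by over 1.5 times, and under the other settings 1 turned, Mb. Quantile normalization left 5 genes without overlap, and 37 of the 38 genes left by the filter on dim genes had a higher mean. The shares over all genes were not counted under these settings. With fewer tumours any gene separates more easily, so nothing is read from these counts. No paired analysis was possible because the tumour numbers are not shared between genotypes. Dim signals limit the size of the differences that could be seen.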

Other observations

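Probes for the precursors of microRNAs of muscle were dim in all 8 tumours. Mir206 ran from 1.36 to 1.78, Mir1a-1 from 1.71 to 2.02, Mir208b from 1.80 to 2.08, Mir499 from 2.57 to 3.37, Mir133a-2 from 3.06 to 4.23 and Mir133b from 3.56 to 4.10. Only Mir499, whose precursor lies within Myh7b, was highest in NeuNT/H1074R replicates 3 and 1, at 3.37 and 3.01. These genes were chosen after the values of the muscle genes had been seen.

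Of the satellite cell and developing muscle genes, 2 of 14 lay higher in every NeuNT/H1074R tumour than in any NeuNT tumour (1.9% of all genes did): Pax7, the satellite cell factor, at 5.51 to 5.69 against 4.80 to 5.49, and Myf5, an early muscle factor, at 5.22 to 5.40 against 4.70 to 5.04. Neither passed in limma (adjusted p = 0.968 for both). Both were about as high in NeuNT/H1074R replicates 2 and 4 (Pax7 at 5.59 and 5.60, Myf5 at 5.40 and 5.39) as in replicates 1 and 3 (Pax7 at 5.51 and 5.69, Myf5 at 5.22 and 5.32). The brightest gene of the list, Myog, overlapped between genotypes, at 5.68 to 5.96 in NeuNT and 5.69 to 6.11 in NeuNT/H1074R.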
